A study of Arabidopsis thaliana with 9 samples.

Results

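The 10 genes described here are the abscisic acid and dehydration response genes RD29A, RD29B, RAB18, COR15A, COR47, ERD10, ERD14, KIN1, KIN2 and LTI30 of Arabidopsis thaliana. They were chosen with earlier results of these data known and were found by locus identifier. All 10 are among the 31124 loci of the deposited expression table. RNA was sequenced from oscillation zones dissected from roots, the region behind the tip where auxin response pulses and lateral root sites are set. The groups are a Col0 wild-type control, taken when oscillation was at its minimum, the potent line, which carries the iaa18/potent alteration of an auxin response repressor, and the arf7 line, altered in an auxin response factor. Each group had 3 independent samples. In all groups DR5::Luciferase, a light-emitting reporter of auxin response, was followed, and zones were taken at 7 dpi from plants grown on agar with 1% sucrose under 16 h of light and 8 h of dark at 21 to 23 °C. The alleles, the ecotype of the mutant lines and the oscillation phase of the mutant samples are not stated in the labels, so genotype and phase cannot be told apart.

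When water is short or cells are chilled, abscisic acid binds PYR/PYL receptors, which then block clade A PP2C phosphatases. The released SnRK2 kinases activate ABF transcription factors, which bind the ABRE, a promoter element with the core ACGTG. A parallel route that needs no abscisic acid runs through CBF and DREB2 factors, which bind the DRE, with the core CCGAC. Both routes switch on genes for very hydrophilic proteins that protect membranes and enzymes as cells lose water: dehydrins and other late embryogenesis abundant (LEA) proteins. COR47, ERD10 and ERD14 encode acidic dehydrins, and LTI30 and RAB18 encode further dehydrins. RD29A and RD29B encode large hydrophilic proteins, KIN1 and KIN2 small hydrophilic proteins, and COR15A a LEA protein of the chloroplast stroma.

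Several of the genes lie beside a relative. RD29B is followed by RD29A on chromosome 5, KIN1 by KIN2 on chromosome 5, and COR47 and ERD10 are adjacent on chromosome 1. The sequences before 5 of these genes are shown because they belong to the genes listed as higher and to RD29B, the neighbour of RD29A. Each is the 250 bases before the annotated gene start on the gene's own strand, from the RefSeq genome and annotation of build TAIR10.1, with every ACGTG and CCGAC core on either strand in capitals.
RD29A, chr5:21240467-21240716, plus strand: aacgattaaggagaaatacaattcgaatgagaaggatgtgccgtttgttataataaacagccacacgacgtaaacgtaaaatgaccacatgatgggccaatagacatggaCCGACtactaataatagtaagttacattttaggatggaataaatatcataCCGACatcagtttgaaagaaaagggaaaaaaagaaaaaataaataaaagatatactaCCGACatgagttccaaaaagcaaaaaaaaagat
RD29B, chr5:21236771-21237020, plus strand: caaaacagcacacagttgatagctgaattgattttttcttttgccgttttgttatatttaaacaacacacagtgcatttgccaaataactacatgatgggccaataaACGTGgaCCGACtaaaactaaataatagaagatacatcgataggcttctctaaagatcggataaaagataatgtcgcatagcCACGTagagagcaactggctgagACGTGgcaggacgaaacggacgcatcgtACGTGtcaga
KIN1, chr5:5209467-5209716, plus strand: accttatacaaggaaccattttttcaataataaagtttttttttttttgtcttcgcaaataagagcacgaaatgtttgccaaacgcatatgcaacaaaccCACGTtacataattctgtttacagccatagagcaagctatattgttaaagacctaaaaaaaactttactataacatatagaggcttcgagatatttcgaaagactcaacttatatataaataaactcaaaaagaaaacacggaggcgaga
KIN2, chr5:5211469-5211718, plus strand: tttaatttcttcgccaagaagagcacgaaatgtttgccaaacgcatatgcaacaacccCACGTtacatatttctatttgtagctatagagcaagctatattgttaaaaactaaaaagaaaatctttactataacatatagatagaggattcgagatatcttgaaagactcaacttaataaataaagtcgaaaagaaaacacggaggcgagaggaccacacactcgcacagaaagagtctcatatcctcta
COR47, chr1:7086874-7087123, minus strand: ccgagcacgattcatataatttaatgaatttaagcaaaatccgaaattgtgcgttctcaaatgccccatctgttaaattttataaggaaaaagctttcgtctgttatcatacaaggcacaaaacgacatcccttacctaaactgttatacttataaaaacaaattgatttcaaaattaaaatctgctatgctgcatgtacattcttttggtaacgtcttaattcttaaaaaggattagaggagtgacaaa
RD29A held 3 DRE cores and no ABRE core in this window, and RD29B held 4 ABRE cores and 1 DRE core. KIN1 and KIN2 held 1 ABRE core each, and the best local alignment of their windows matched at 186 of 214 columns. COR47 held neither core here. In COR47, 1209 bases of the annotated gene lie before its first coding base, so this window is far from the coding sequence. The same offset was 212 bases in RD29A and 184 in RD29B. Bases inside the annotated genes were not searched, so a core absent from a window may still lie between it and the coding sequence.

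Over all 10 genes, the ABRE core was present before 6 and the DRE core before 4. The same windows of 27443 protein-coding genes held ACGTG in 22.9% and CCGAC in 12.0%. The 7-letter form ACGTGNC was present before RD29B and RAB18 and in 8.57% of all windows. The longer DRE form ACCGAC was present before RD29A, RD29B, COR15A and LTI30 and in 4.70% of all windows. Both strands were searched, the short cores lie inside the longer forms, and the palindrome CACGTG before COR15A counts on both strands. The auxin response element TGTCTC was before none of the 10 genes and in 10.9% of all windows. TGTCGG, another auxin response element, was before RD29A, COR15A and LTI30 and in 4.16% of all windows. By its letters every TGTCGG holds a DRE core on the other strand, so its matches, in windows of any length, are also counted as DRE cores. In a longer window of 1000 bases before the start, ACGTG was before 7 of the 10 genes and 54.4% of all protein-coding genes, CCGAC before 9 and 37.4%, TGTCGG before 8 and 14.6%, and TGTCTC before 1 and 39.6%. There ERD10 held 5 ABRE and 2 DRE cores, and COR47 held 1 DRE core. A match describes letters in this window and is not a measured binding site.

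**Figure D1:**
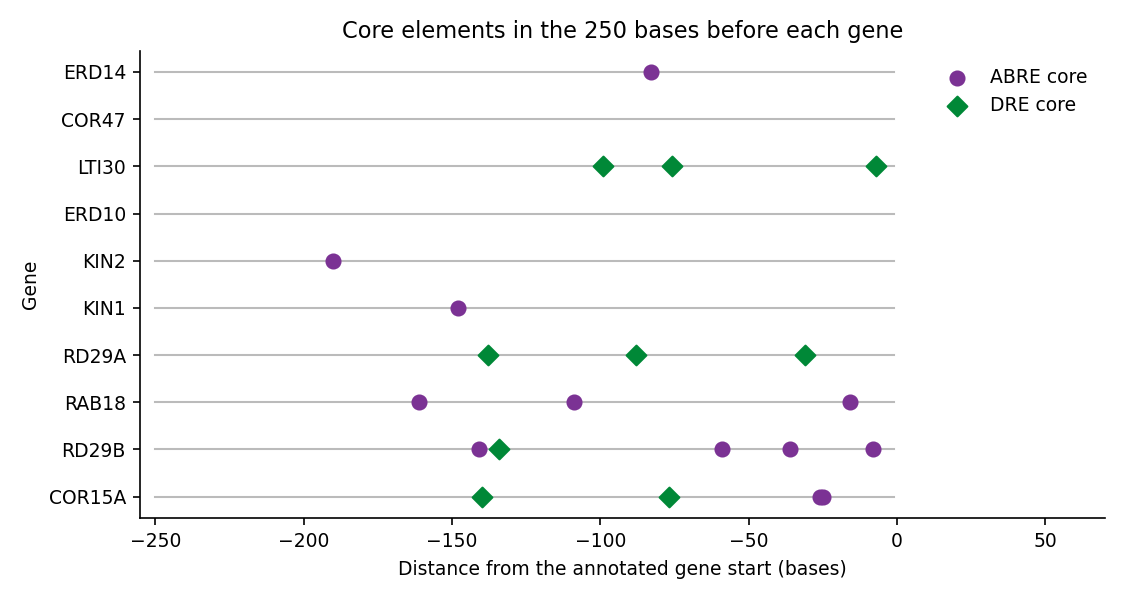
Positions of the ABRE core (circles) and the DRE core (diamonds) in the 250 bases before the annotated start of each gene; the horizontal axis is the distance from that start in bases, and grey lines mark the window. RD29A and LTI30 have 3 DRE cores each and RAB18 has 3 ABRE cores, while COR47 and ERD10 have neither within these 250 bases.

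Expression was given as FPKM, a fragment count divided by the length of the transcript and by the total mapped, with 1 value per genotype in which the authors had combined the 3 samples. The spread between samples is therefore not known, no test was run here, and neighbours in an order of levels cannot be separated by error. The verbs rose and fell are kept for genes that the authors' deposited table of comparisons lists. That table holds no increase smaller than 1.14 on the log2 scale in potent or 1.18 in arf7, and its q-values run from 0.00145 to 0.00945. The depth of the samples is unknown. Of the altered genes, control, potent and arf7 zones had 12.0, 9.35 and 2.64 FPKM for ARF7 (AT5G20730) and 10.6, 21.8 and 19.1 FPKM for IAA18 (AT1G51950).

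The 8 genes above 0 in every genotype all had a higher value in each mutant than in the control. Of all loci above 0 in both genotypes compared, 51.9% were higher in potent and 48.6% in arf7. RD29B and COR15A are at 0 in the control, so their values could not have been lower in a mutant. The authors' deposited table lists 4 of the 10 as higher in potent (RD29A, COR47, KIN1 and KIN2) and 2 in arf7 (RD29A and COR47). Of loci above 0 in either genotype compared, 3.44% and 2.02% are listed as higher. None of the 10 is listed as lower, as 3.92% of these loci are in potent and 2.55% in arf7. Among loci with at least 5 FPKM in either genotype, which leaves out RD29B and COR15A, the listed shares were 4.58% and 2.78%. The median log2 ratio of the 10 genes, log2((FPKM + 1)/(FPKM + 1)), was 1.24 in potent and 1.08 in arf7. Over loci above 0 in either genotype compared, the median was 0.03 and -0.00064. In potent 6 of the 10 genes reached a log2 ratio of 1, and in arf7 6 did. Of loci above 0 in either genotype compared, 17.5% and 12.9% did. These shares include low loci, whose ratios the pseudocount shrinks, and were not taken among loci with at least 5 FPKM. There the upper quartile of the log2 ratios was 0.80 in potent and 0.61 in arf7, against 0.68 and 0.51 over loci above 0. The first count ran from 5 to 8 and the second from 5 to 6 with other pseudocounts and scalings. In potent, ERD14 (0.94) and LTI30 (0.96) passed 1 with genotypes rescaled by their median ratio. RD29B, at 0.243 FPKM in potent, went from 0.31 to 1.78 with a pseudocount of 0.1. With a pseudocount of 5, RAB18 went from 1.42 to 0.99 in potent and from 1.08 to 0.73 in arf7. Both comparisons use the same control samples, and the 10 genes were chosen with earlier results of these data known. The summed level of the 10 genes was 2130 FPKM in control zones, 4600 in potent and 4677 in arf7.

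**Figure D2:**
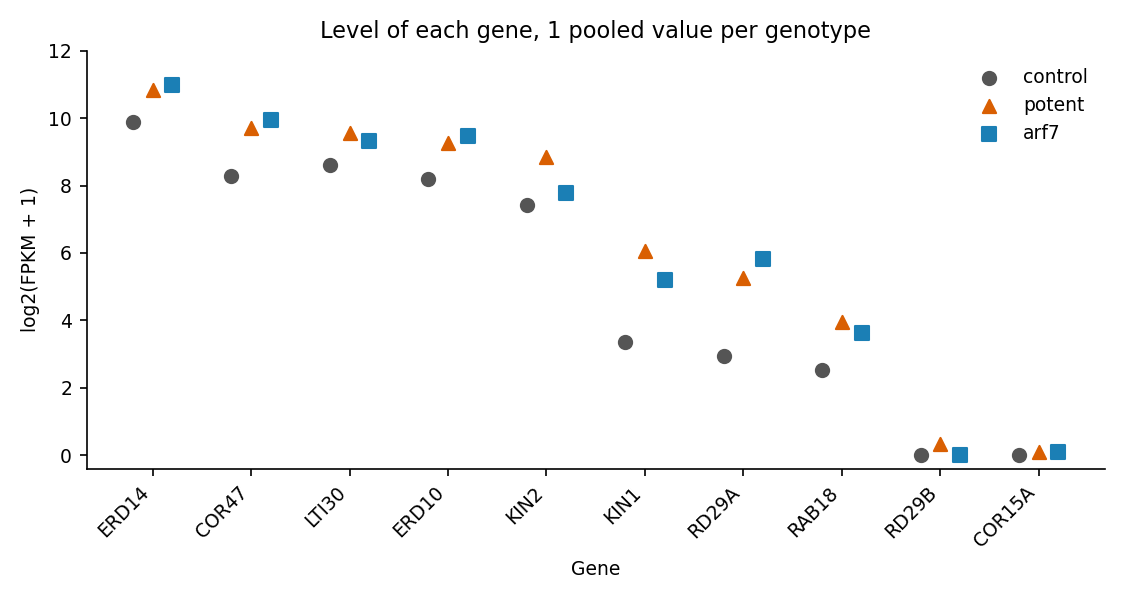
Level of each of the 10 genes as log2(FPKM + 1), with 1 pooled value for control (circles), potent (triangles) and arf7 (squares) and no error bars, since no values per sample were used. The control is the lowest of the 3 values for every gene, and RD29B and COR15A lie near 0 in every genotype.

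The acidic dehydrin genes were abundant, with at least 289 FPKM in every genotype, and had their highest values in arf7. COR47 (AT1G20440) had 309 FPKM in control zones, 831 in potent and 992 in arf7. It rose 2.69-fold in potent and 3.21-fold in arf7, with q of 0.00269 and 0.00145 in the authors' deposited table. The arf7 line held the highest of its values and the control the lowest. Its neighbour ERD10 (AT1G20450) had 289 FPKM in control zones, 609 in potent and 703 in arf7, or 2.11 and 2.43 times the control, and is not listed. COR47 and ERD10 had nearly equal levels in the control, with a ratio of 1.07, and ratios of 1.36 in potent and 1.41 in arf7. ERD14 (AT1G76180) had 949 FPKM in control zones, 1826 in potent and 2017 in arf7, and is not listed either. It ranked number 123 of all loci in the control and number 34 in potent, and it made up 44.6% of the summed level of the 10 genes in the control.

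The other dehydrin genes, LTI30 and RAB18, had their highest values in potent. LTI30 (AT3G50970) had 390 FPKM in control zones, 759 in potent and 641 in arf7. Its ratios to the control were 1.95 and 1.64, or 0.96 and 0.72 on the log2 scale, both under the smallest increases listed on that scale. XERO1 (AT3G50980), the dehydrin gene that follows LTI30 on the chromosome, was far less abundant, at 0.363 FPKM in control zones and 3.19 in potent, and is listed at 0 in arf7. RAB18 (AT5G66400), a gene much used as a reporter of abscisic acid response, had 4.81 FPKM in control zones, 14.5 in potent and 11.3 in arf7. RAB18 was 3.01 and 2.34 times the control, or 1.59 and 1.23 on the log2 scale, and is not in the authors' deposited table although its log2 ratios exceed the smallest increases listed there. RAB18 and AT5G66410, on the other strand, overlap at their annotated starts (a gap of -11 bases). The window before RAB18 therefore lies at least partly inside AT5G66410, which had 57.7 FPKM in control zones, 23.9 in potent and 26.8 in arf7.

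RD29A and RD29B, adjacent on the chromosome, had very different levels. RD29A (AT5G52310) had 6.74 FPKM in control zones, 37.3 in potent and 55.3 in arf7. It rose 5.53-fold in potent and 8.21-fold in arf7, each with q of 0.00145 in the authors' deposited table, and arf7 held the highest value. Of the 10 genes, RD29A had the largest log2 ratio in arf7 (2.86), and KIN1 the largest in potent (2.68). RD29B (AT5G52300), whose window holds 4 ABRE cores, was at a listed 0 in the control, with 0.243 FPKM in potent and 0.00874 in arf7. COR15A (AT2G42540) was likewise at a listed 0 there, with 0.0615 FPKM in potent and 0.0624 in arf7. No fold is given for RD29B or COR15A, which stayed under 1 FPKM in every genotype. An exact 0 can be a failed estimate in this table, in which 12 loci at 0 in the control have at least 20 FPKM in both mutants.

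KIN1 and KIN2 were higher in potent than in arf7. KIN1 (AT5G15960) had 9.33 FPKM in control zones, 65.3 in potent and 35.9 in arf7. It rose 7.00-fold in potent, with q of 0.00145 in the authors' deposited table, and was 3.85 times the control in arf7, where it is not listed. KIN2 (AT5G15970) had 171 FPKM in control zones, 457 in potent and 220 in arf7. It rose 2.67-fold in potent, with q of 0.00145 in the authors' deposited table, and its arf7 value was 1.29 times the control. KIN2 was 18.3 times as abundant as KIN1 in the control, 7.00 times in potent and 6.14 times in arf7. The transcripts of KIN1 and KIN2 share 10 windows of 50 bases, 1.28% of those of KIN1 and 1.43% of those of KIN2, and those of the other 8 genes share none with another annotated gene.

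**Figure D3:**
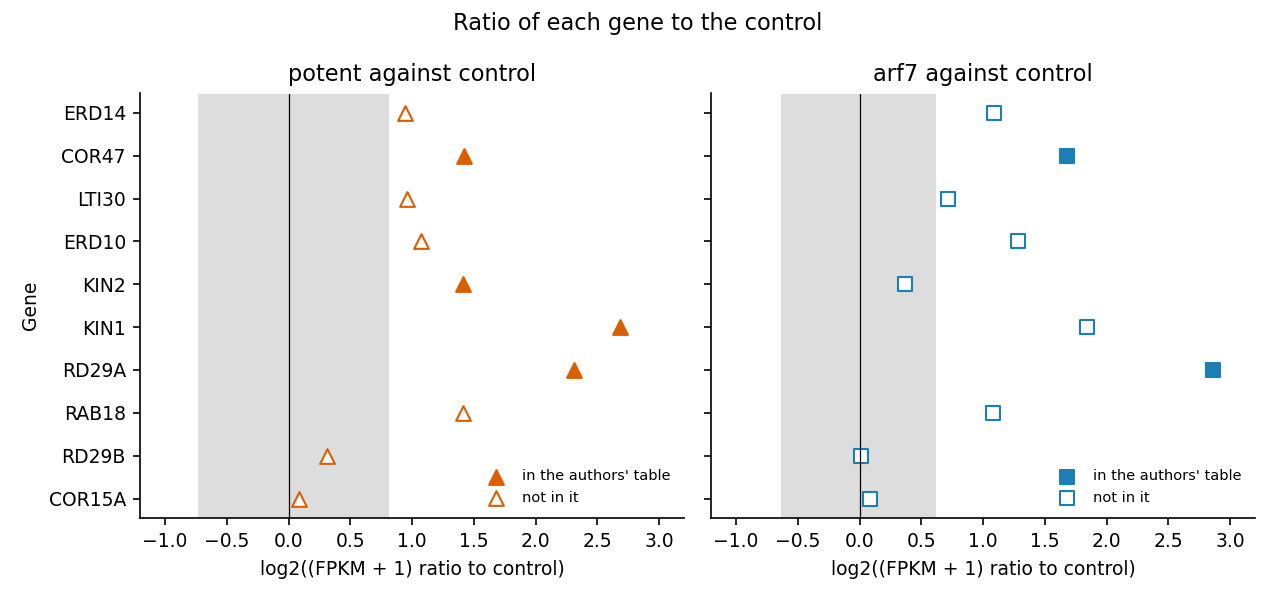
Ratio of each gene to the control as log2((FPKM + 1)/(FPKM + 1)), for potent on the left and arf7 on the right; filled symbols are genes in the authors' deposited table, and the grey band spans the middle quartiles of loci with at least 5 FPKM in either genotype. RD29A at 2.31 and 2.86 and KIN1 at 2.68 and 1.84 lie farthest from the band. RD29B and COR15A, both under 1 FPKM, lie inside it in both mutants, and KIN2 at 0.36 lies inside it in arf7.

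Potent and arf7 were also set side by side, for which no comparison by the authors was used here. Of the 10 genes, 5 had the higher value in potent, as did 52.1% of loci above 0 in both. KIN2 was 2.07 times and KIN1 1.82 times as high in potent as in arf7. KIN2, at 1.05 on the log2 (FPKM + 1) scale, was alone among the 10 in reaching a log2 ratio of 1. Of loci above 0 in either mutant, 8.57% did. With both genotypes scaled to an equal sum, KIN2 fell just short and none of the 10 did. In the other direction RD29A, at -0.56, had the largest difference, and COR47 (-0.26), ERD10 (-0.21) and ERD14 (-0.14) followed. The median over the 10 genes was 0.12 and over loci above 0 in either mutant 0.0056. No test of the difference between the mutants was possible with 1 value each.

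The other genes of the pathway were then described by lists. Of 14 receptor genes, 11 were above 0 in some genotype and none is listed in either mutant, with median log2 ratios of 0.03 in potent and 0.0079 in arf7. PYR1 (AT4G17870), the most abundant, had 248 FPKM in control zones, 163 in potent and 246 in arf7, PYL4 (AT2G38310) had 176, 180 and 148, and PYL5 (AT5G05440) had 37.5, 63.8 and 55.0. None of the 9 clade A phosphatase genes, the 3 SnRK2 kinase genes or the 7 ABF and ABI factor genes is listed. The phosphatase gene ABI1 (AT4G26080), itself induced by abscisic acid, had 24.4 FPKM in control zones, 57.5 in potent and 46.2 in arf7. PP2CA (AT3G11410) had 16.0, 13.7 and 20.8 FPKM and HAB1 (AT1G72770) had 10.0, 8.12 and 14.2, lower than the control in potent and higher in arf7. The phosphatase list had a median log2 ratio of 0.06 in potent, with 4 genes higher and 3 lower, and 0.41 in arf7, with 6 higher and 2 lower. The kinase gene SnRK2.2 (AT3G50500) had 89.8, 112 and 116 FPKM, SnRK2.3 (AT5G66880) had 10.3, 19.1 and 11.0, and OST1 (AT4G33950) had 3.48, 5.90 and 1.75. ABF3 (AT4G34000) had 29.5, 23.1 and 32.0 FPKM, and ABF4 (AT3G19290) had 13.6, 26.3 and 18.9, while ABF2 (AT1G45249) had 10.7, 18.7 and 17.2. Among loci above 0 in either genotype compared, 3.44% are listed as higher in potent and 2.02% in arf7. The absence of these few genes from the table is therefore close to the background.

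Of 10 abscisic acid synthesis genes, 1 rose and 1 fell in potent, and 1 rose in arf7. ABA4 (AT1G67080), needed to make the precursor neoxanthin, had 7.68 FPKM in control zones, 38.5 in potent and 41.8 in arf7, with q of 0.00861 and 0.00587 in the authors' deposited table. NCED2 (AT4G18350), a gene of the carotenoid-cleaving step, fell in potent from 1.36 FPKM to a listed 0. NCED3 (AT3G14440), the member of that family most responsive to drought, had 3.22, 5.10 and 5.55 FPKM. ABA1 (AT5G67030), the zeaxanthin epoxidase gene, had 1.25, 7.30 and 3.45 FPKM. ABA2 (AT1G52340), a dehydrogenase of a late step, went the other way with 24.0, 9.36 and 9.56 FPKM and is not listed. Among 4 breakdown genes of the CYP707A family, CYP707A1 (AT4G19230) had 17.1, 25.4 and 7.36 FPKM, CYP707A3 (AT5G45340) had 3.58, 0.857 and 3.84, and none is listed. The median log2 ratio of the synthesis genes was -0.13 in potent and -0.27 in arf7.

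None of the 10 CBF, DREB2 and upstream regulator genes is listed, and their median log2 ratio was -0.01 in potent and 0.0082 in arf7. DREB2A (AT5G05410), which acts in dehydration and heat, had 11.6 FPKM in control zones, 7.60 in potent and 6.42 in arf7. The upstream regulator genes ICE1 (AT3G26744) and CAMTA3 (AT2G22300) had 3.22, 4.71 and 4.85 FPKM and 4.91, 3.40 and 4.28 FPKM. The cold-induced factors CBF1 (AT4G25490), CBF2 (AT4G25470) and CBF3 (AT4G25480) stayed at or under 2.03 FPKM in every genotype, and CBF4 (AT5G51990) is listed at 0 in all.

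Further genes that respond to cold, drought or abscisic acid were counted in the same way. Of 11 further LEA and COR genes analysed, 1 rose in both mutants: LEA14 (AT1G01470), which had 28.2 FPKM in control zones, 89.2 in potent and 115 in arf7, with q of 0.00269 and 0.00145 in the authors' deposited table. The dehydrin gene HIRD11 (AT1G54410) had 798, 1948 and 1763 FPKM, and the membrane protein gene COR413-PM1 (AT2G15970) had 882, 1538 and 1736, without being listed. COR413IM1 (AT1G29395), a related gene for a chloroplast membrane protein, was slightly lower in both mutants, with 24.1, 22.5 and 22.0 FPKM. The list medians were 1.04 in potent and 0.78 in arf7. Of 24 other drought and abscisic acid induced genes, 2 rose in potent, and 1 rose and 1 fell in arf7. ERD4 (AT1G30360) rose from 90.6 FPKM, reaching 275 in potent and 273 in arf7, each with q of 0.00145 in the authors' deposited table. The homeodomain factor gene HB7 (AT2G46680), in an entry joined with a neighbouring gene, rose in potent from a listed 0 to 3.59 FPKM. ALDH7B4 (AT1G54100), an aldehyde dehydrogenase gene, fell in arf7 from 137 to 48.8 FPKM. The most abundant genes of this list outside the authors' table were ERD15 (AT2G41430) with 579, 545 and 635 FPKM, HVA22D (AT4G24960) with 84.5, 120 and 157, and ERD7 (AT2G17840) with 48.0, 101 and 107. RD26 (AT4G27410), a NAC factor gene named after its values were seen, had 9.89, 63.1 and 21.8 FPKM and is not listed. RD20 (AT2G33380), RD22 (AT5G25610), NAC019 (AT1G52890), HB12 (AT3G61890), LTP4 (AT5G59310) and HIS1-3 (AT2G18050) are listed at 0 in every genotype. The median of this list was 0.61 in potent and 0.08 in arf7.

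**Figure D4:**
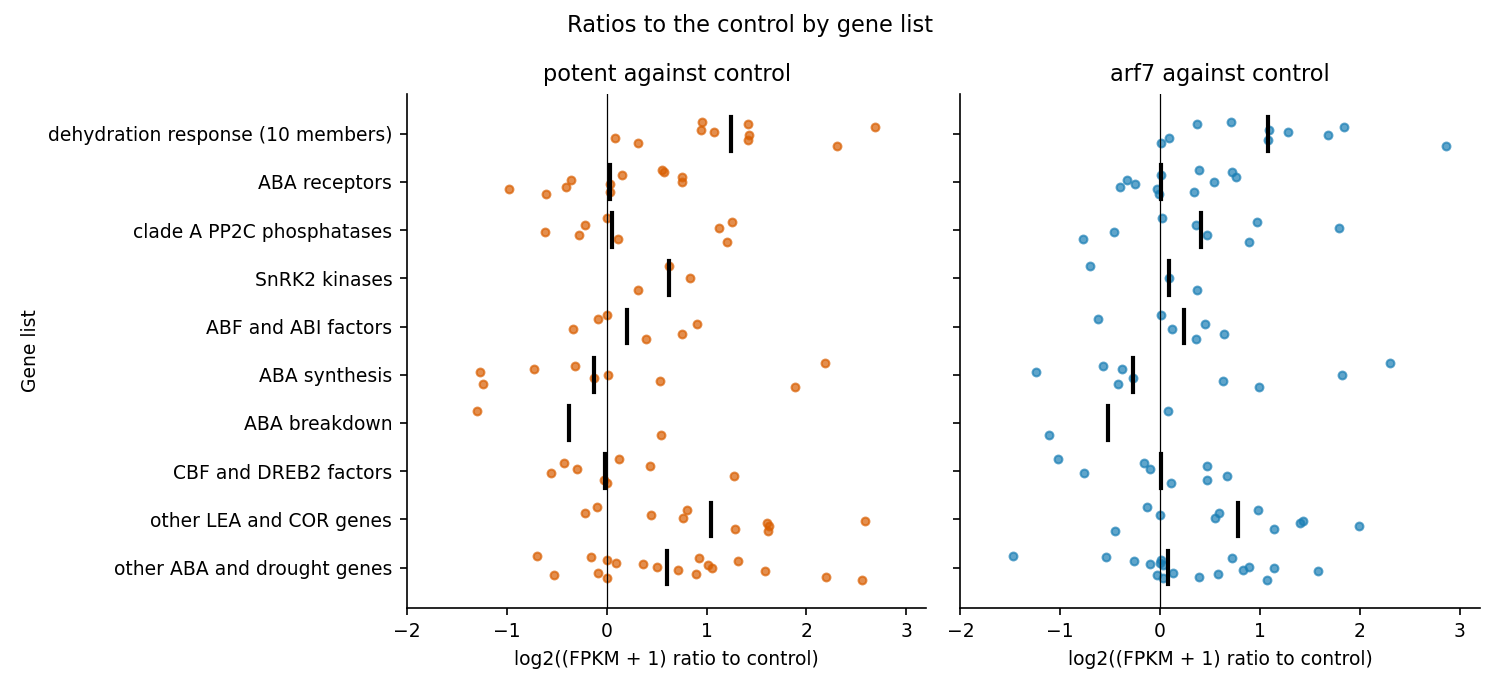
Ratio to the control as log2((FPKM + 1)/(FPKM + 1)) for every gene above 0 in each list, in potent on the left and arf7 on the right; each point is 1 gene and the black bars are list medians. The medians of the 10 genes are 1.24 and 1.08, and those of the further LEA and COR genes 1.04 and 0.78, while those of the receptor genes lie at 0.03 and 0.0079.

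Most markers of endodermis, root hairs and xylem also had higher values in both mutants. In bulk samples, more cells of a type and more RNA per cell cannot be told apart. The 6 endodermis markers, all above 1 FPKM, summed to 2673 FPKM in control zones, 7519 in potent and 6852 in arf7, with medians of 1.33 and 1.31, and 2 rose in arf7. Among them SCR (AT3G54220) went the other way in arf7, at 21.2 FPKM against 25.5. The 5 root hair markers summed to 414, 2256 and 1334 FPKM, and 4 rose in each mutant. COBL9 (AT5G49270), which is not listed, was lower in potent, at 57.6 FPKM against 73.3. The 7 xylem markers summed to 948, 1474 and 1646 FPKM, and 2 rose in potent and 3 in arf7. CESA4 (AT5G44030) alone held 852 FPKM of the control sum, and the median log2 ratio of the list was 1.83 in potent and 1.99 in arf7. Of 3 root cap markers, SMB (AT1G79580) and BRN1 (AT1G33280) are at 0 in every genotype and BRN2 (AT4G10350) is at 0 in both mutants. The 2 phloem markers summed to 14.5, 22.8 and 33.3 FPKM, with none listed. The 3 shoot markers summed to 13.7, 67.2 and 32.6 FPKM, and PSBO1 rose in potent. The 3 seed markers stayed under 2 FPKM in sum. The 3 touch-induced genes summed to 101, 105 and 163 FPKM, with none listed. Among them TCH4 (AT5G57560) was higher in both mutants, at 1.37, 12.0 and 9.72 FPKM. The more abundant TCH2 (AT5G37770) had 38.6, 39.0 and 79.7 FPKM, and TCH3 (AT2G41100) had 61.4, 54.2 and 73.7. The part of these cell types, and of handling, in the values of the dehydration response genes was not tested.

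Loci whose ratios were most like those of the set were found among 13207 loci with at least 5 FPKM in some genotype and no value at 0, by the distance between pairs of log2 ratios over the 3 genotypes. Nearest to the median profile of the 10 genes were AT2G21960, AT3G08640, GLX2-5 (AT2G31350), AT2G42760 and AT5G12300, at distances from 0.0026 to 0.037. GLX2-5, of the glyoxalase family, had 19.6 FPKM in control zones, 48.7 in potent and 42.9 in arf7. Nearest to RD29A were AT3G01940, AT5G66816, GAUT12 (AT5G54690), SUS4 (AT3G43190) and AT1G03660, at distances from 0.062 to 0.14. GAUT12, a glycosyltransferase gene of secondary wall xylan synthesis, had 1.70, 11.6 and 19.4 FPKM, and the sucrose synthase gene SUS4 had 0.170, 5.15 and 7.23 FPKM. With 3 values per locus these distances describe the profiles and carry no error.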

How the data were processed

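RNA was sequenced from 9 samples, 3 per genotype, grouped by sample title. Per the submitters' processing notes, Bowtie2, Bowtie, TopHat2, TopHat, Cufflinks and Cuffdiff were used with build TAIR10; their versions, order and settings are not stated there. The deposited values were taken as FPKM from these tools and from the values themselves, since the file has no unit, with 1 value per genotype. The authors' deposited comparison table gives log2 fold changes and q-values; its numeric fold changes match the deposited FPKM within 0.00001, and 490 of 2577 entries hold text where a genotype is at 0. The depth is unknown and no test was possible.

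Ratios used a pseudocount of 1 FPKM, which understates changes of low genes. The median and count functions were tested on simulated data. The members, 9 pathway lists (95 genes) and 8 marker lists were chosen with earlier results of these data known. From each pathway list the genes in the authors' table and up to 3 of the most abundant others are named; 3 genes of the pathway lists (COR15B, SAG21 and COR413IM2) are not analysed here. Names came from the RefSeq annotation of TAIR10.1 (30847 of 31124 loci matched). It was joined by locus identifier, and its coordinates apply to that build. Python 3.11.15, pandas 2.3.3 and matplotlib 3.10.9 were used. Values of overlapping genes such as RAB18 are uncertain, since the named library protocol keeps no strand. Nothing states that the 3 samples of a group were separate plants beyond calling them independent.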

Additional observations from a re-analysis of the deposited data

How the results depend on the processing

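With pseudocounts of 0.1 or 5, with genotypes rescaled by their median ratio or to an equal sum, with low members or members at 0 left out, and without KIN1 and KIN2, the median log2 ratio of the 10 genes ran from 1.02 to 1.42 in potent and from 0.91 to 1.18 in arf7. For potent against arf7 it ran from -0.07 to 0.12, so its sign depends on the setting. Under both rescalings the 8 genes above 0 in every genotype were higher in each mutant, and 4 of them were higher in potent than in arf7; a pseudocount cannot change these directions. In settings applied to this count after seeing the data, the genes with a log2 ratio of at least 1 numbered 5 to 8 in potent and 5 to 6 in arf7. For potent against arf7 they numbered 2 with a pseudocount of 0.1 and 0 with equal sums, beside 1 as reported. With a pseudocount of 0.1, genes that rest on values under 1 FPKM moved by more than 1.5-fold: the log2 ratio became 1.78 for RD29B and 0.69 for COR15A in potent, 0.70 for COR15A in arf7, and 1.66 for RD29B between potent and arf7. The rescaling by median ratio raised potent by 0.06 and arf7 by 0.06 on the log2 scale relative to the control. No paired analysis was possible because the deposited columns hold 1 value per genotype and carry no replicate numbers; for the same reason no replicate could be left out.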
